A study of Homo sapiens with 6 samples.

Results

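The complement and coagulation genes are 45 human genes for the proteins of the complement cascade, of blood clotting and of clot breakdown, together with the inhibitors that restrain them. They are a list of gene names, and no measured value enters the rule that defines it. All 45 were found among the 59608 genes of the count table, and 43 of them passed the filter on low counts, as did 19111 genes in all.

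RNA was sequenced from HepG2, an established human liver cancer cell line that makes many of the plasma proteins of hepatocytes. In all libraries the cells had received a lentivirus-encoded sgRNA against their own VEZF1, a zinc finger transcription factor. After that, 1 of 2 forms of VEZF1 was put back. VEZF1-WT is the normal protein, and in VEZF1-2A 2 serines that carry O-GlcNAc were replaced by alanine. The paper lists further potential O-GlcNAc sites on VEZF1, which VEZF1-2A keeps. O-GlcNAc is a single sugar that cells attach to serines and threonines of many nuclear proteins. There were 3 libraries of each form, numbered 1 to 3. The comparison of both forms therefore asks whether RNA levels differ when alanine replaces these 2 serines, so that VEZF1 cannot carry the sugar there. In another liver cancer cell line, the paper reports a shorter half-life for the alanine form than for the normal protein. Both forms may therefore also differ in the amount of VEZF1 protein, which RNA counts do not measure. The part of the sugar, of the protein amount and of the alanines themselves was not tested.

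Both groups therefore share the HepG2 background, the loss of endogenous VEZF1 and the re-expression step, and no library of untreated or VEZF1-deficient cells was analysed here. Whether the edited cells were a pool or 1 clone is not stated for these libraries. The labels also do not say whether libraries of a group came from separate cultures, so the p-values measure only the spread between these libraries.

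Complement, coagulation and fibrinolysis are cascades in which inactive precursors, most of them secreted by the liver, are cut one after the other into active proteases. Complement coats microbes and damaged cells, calls in leukocytes and can open pores in membranes, and coagulation ends in thrombin turning soluble fibrinogen into a fibrin mesh. Serpins and other inhibitors in plasma and on cell surfaces keep these reactions local.

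The libraries held between 28756765 and 57199396 counts, and the members together took between 0.680% and 0.884% of them. Levels are given as CPM, a gene's count as a share of the library's total and scaled to a common total, after TMM scaling in edgeR, with factors from 0.977 to 1.014. Hepatocyte and hepatoma markers were measured in all libraries, and the 9 of 9 that were tested summed to between 8011 and 10660 CPM in VEZF1-WT and between 7610 and 10340 CPM in VEZF1-2A. Endothelial markers summed to at most 3.78 CPM in a library, with CDH5, KDR and TEK at or near 0, and stellate cell and fibroblast markers to at most 3.35 CPM, with COL1A2 and DCN at or near 0. Of the macrophage and leukocyte markers, PTPRC, CD163 and MARCO stayed at or below 0.137 CPM, while CD68, a lysosomal protein that many cell types make, reached 185 CPM. VEZF1 itself was at 59.3, 45.6 and 40.0 CPM in VEZF1-WT and at 46.2, 48.6 and 38.8 CPM in VEZF1-2A. These counts cannot separate the endogenous transcript from the one put back, so they do not check the labels. In bulk RNA, fewer cells of a type and less RNA per cell cannot be told apart.

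No complement or coagulation gene was called different between VEZF1-WT and VEZF1-2A. The quasi-likelihood test of edgeR gave none of the 43 members tested an adjusted p under 0.05, and it gave none to any of the 19111 genes (0% called). The smallest adjusted p of a member was 0.9996. At an unadjusted p under 0.05, edgeR called 0 members higher in VEZF1-WT, beside 0.832% of all genes, and 0 members lower, beside 1.3% of all genes. DESeq2 called 3 genes at an adjusted p under 0.05 and limma voom called 0, with no member among them. The count of members at an unadjusted p under 0.05 did depend on single libraries: without VEZF1-2A library 1 there were 3 lower members of 44 tested, beside 1.47% of all genes in that fit, and without VEZF1-WT library 3 there were 2 of 43, also beside 1.47%. Without VEZF1-2A library 3 there was 1 higher member of 44, beside 2.29% of all genes, and with both libraries numbered 3 left out there were 3 lower members of 44, beside 2.49%.

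Fold changes of the members were small. They are given on the log2 scale as VEZF1-WT minus VEZF1-2A, and ran from -0.55 for F12 to 0.26 for C6, with 15 members above 0 and 28 below 0. Their median was -0.03, against 0.00 over all genes tested. In 28 members, 65.1% of those tested, the fold change was within 0.1 of 0, as it was in 59.9% of all genes. The data set bounds on a change that could have been missed: the 95% interval stayed within 1 log2 unit of 0 for 41 members and within 0.5 log2 units for 25. F12 and C6 were the exceptions at 1 log2 unit, with intervals from -1.21 to 0.10 and from -0.64 to 1.16.

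**Figure D1:**
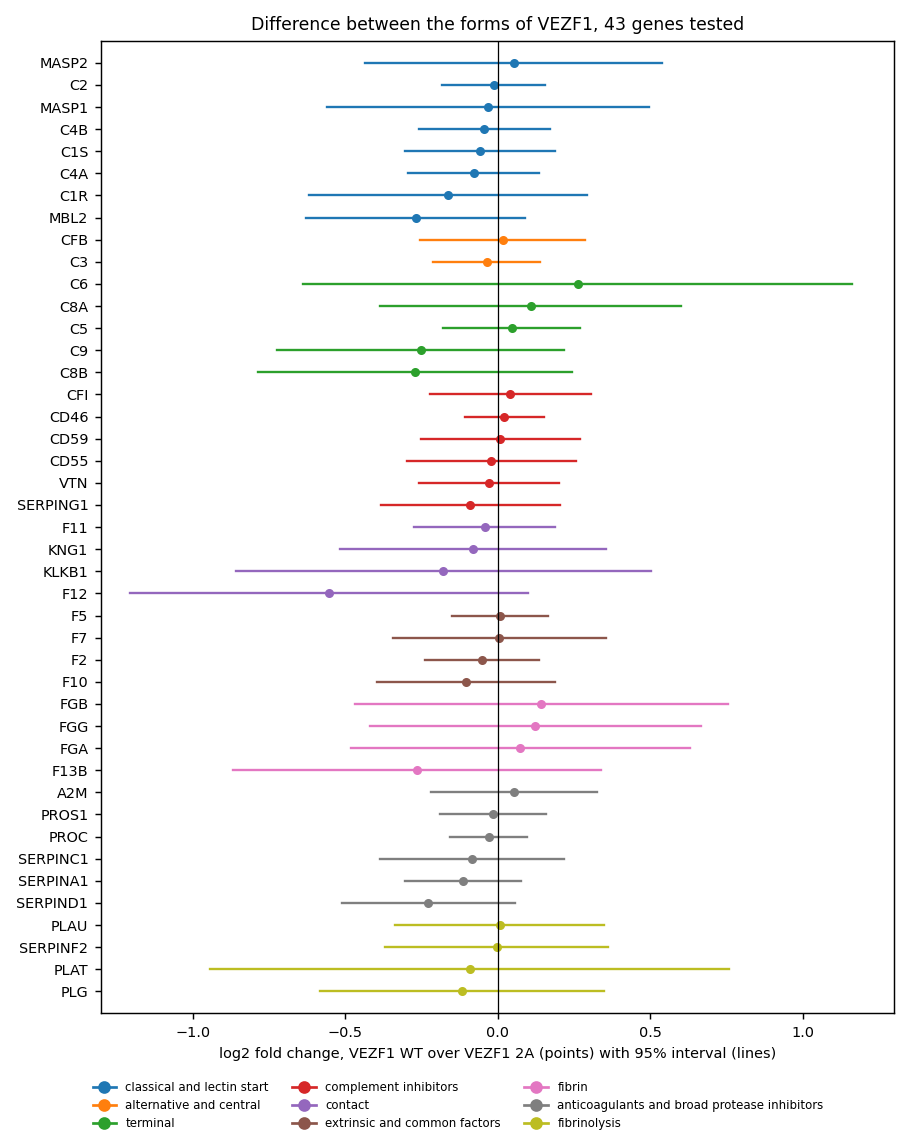
Log2 fold change of the 43 complement and coagulation genes tested (x axis, VEZF1-WT minus VEZF1-2A, points), grouped by role on the y axis. Lines are 95% intervals computed from the F statistic of edgeR's quasi-likelihood test. Every interval includes 0, and the point farthest from 0 is F12 at -0.55.

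The most abundant transcript per length was SERPINA1, the gene of alpha-1-antitrypsin, the main plasma inhibitor of neutrophil elastase, at 569 CPM per kilobase over all libraries. A2M, the gene of a broad protease trap, followed at 166 CPM per kilobase, and FGA, FGB, C3 and FGG lay at 125, 122, 114 and 108 CPM per kilobase. At the other end, PLAT was at 0.0915 CPM per kilobase, C8G at 0.201 and F12 at 0.223. F9, the factor that is missing in haemophilia B, had 2 counts in VEZF1-WT library 2 and 0 counts in the other five, and C8G, the small subunit of complement component 8, had between 6 and 12 counts in a library. Neither of them was tested.

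**Figure D2:**
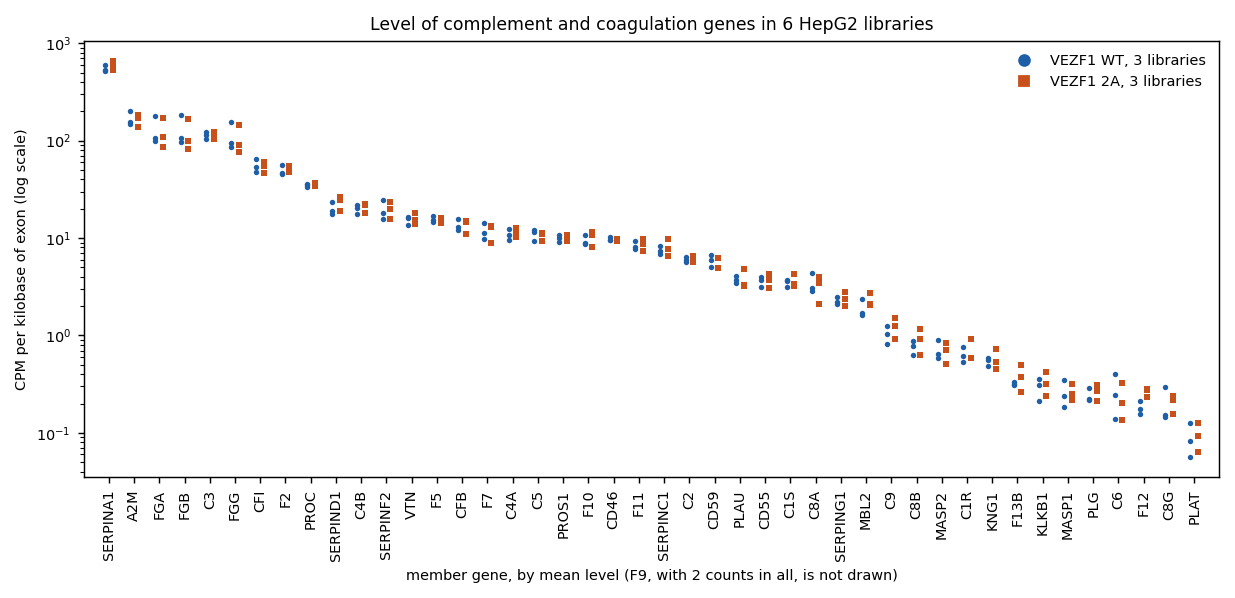
Level of 44 complement and coagulation genes (x axis, in order of mean level, without F9) in each library (y axis, CPM per kilobase of exon, log scale), with blue circles for VEZF1-WT and orange squares for VEZF1-2A. Levels run from SERPINA1 at a mean of 569 to PLAT at 0.0915 CPM per kilobase, and the values of both forms overlap in all members tested but F12.

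The fibrinogen genes showed the widest spread among the abundant members, and it ran along the library numbers and not along the form of VEZF1. FGA, FGB and FGG encode the 3 chains of fibrinogen and lie next to each other on chromosome 4. FGA was at 420, 389 and 703 CPM in VEZF1-WT libraries 1, 2 and 3 and at 340, 431 and 665 CPM in VEZF1-2A libraries 1, 2 and 3. FGB, in the same order, was at 460, 420 and 804 CPM in VEZF1-WT and at 357, 435 and 735 CPM in VEZF1-2A. FGG was at 343, 311 and 560 CPM in VEZF1-WT and at 275, 324 and 516 CPM in VEZF1-2A. In each of the 3 genes both libraries numbered 3 stood above the other four, VEZF1-2A library 1 was the lowest, and the groups overlapped.

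Between the forms, the log2 fold change was 0.07 for FGA (SE 0.25), 0.14 for FGB (SE 0.28) and 0.12 for FGG (SE 0.24). Their unadjusted edgeR p-values were 0.773, 0.616 and 0.623. These signs turned when certain single libraries were left out. Without VEZF1-WT library 3 the values were -0.24, -0.21 and -0.18, and without VEZF1-2A library 1 they were -0.12, -0.06 and -0.05. Without VEZF1-2A library 3 they were 0.38, 0.50 and 0.43. With both libraries numbered 3 left out, an alternative added after the data were seen, they were 0.06, 0.15 and 0.12, close to the values with all libraries.

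The start of each fibrinogen gene is shown because the 3 genes moved together across the libraries. The 250 bases before the start site are from RefSeq on GRCh38.p14. Capitals mark GTTAAT or its reverse complement ATTAAC, a core of the sites of HNF1, a liver transcription factor. In FGB, on the plus strand (chr4:154562761-154563010), the match begins 82 bases before the start. In FGA, on the minus strand (chr4:154590743-154590992), it begins 52 bases before the start. In FGG, also on the minus strand (chr4:154612657-154612906), these letters do not occur in the window.
FGB: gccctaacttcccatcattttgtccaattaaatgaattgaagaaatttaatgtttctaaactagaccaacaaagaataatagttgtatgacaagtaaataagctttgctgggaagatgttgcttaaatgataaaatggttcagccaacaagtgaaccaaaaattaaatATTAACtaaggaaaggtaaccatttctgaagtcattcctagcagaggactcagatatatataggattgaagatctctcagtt
FGA: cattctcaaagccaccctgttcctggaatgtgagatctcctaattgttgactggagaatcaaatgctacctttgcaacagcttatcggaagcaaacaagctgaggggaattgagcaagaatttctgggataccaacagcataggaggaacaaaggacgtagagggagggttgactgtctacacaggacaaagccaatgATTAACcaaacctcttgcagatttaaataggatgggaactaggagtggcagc
FGG: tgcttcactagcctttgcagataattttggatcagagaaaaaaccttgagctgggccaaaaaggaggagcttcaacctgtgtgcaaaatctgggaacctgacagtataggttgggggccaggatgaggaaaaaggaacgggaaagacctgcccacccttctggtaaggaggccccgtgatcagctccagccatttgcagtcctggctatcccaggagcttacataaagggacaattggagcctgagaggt

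Of the 45 members, 35 had a promoter in the RefSeq table, in a window of 250 bases before to 50 after the start. For each member only the promoter nearest to the gene's start in the count table was used. Shares over the RefSeq table are of all its promoters, with no such choice per gene, so the units of both shares differ. GTTAAT on either strand was found in 9 of these 35 (25.7%), namely C5, CFI, F13B, F2, FGA, FGB, KLKB1, PLG and PROC, and in 6.88% of the 35116 promoters of the table. A run of 6 G (GGGGGG on either strand) was in 14.3% of member promoters and in 18.8% of all. The letters CAAAGTCCA, a core of HNF4 sites, were in the promoter of F10 alone, 2.86% of the 35, and in 0.384% of all. TATAAA was in those of CFB and F13B, 5.71% of the 35, and in 11.5% of all. TTGCGCAA, a C/EBP palindrome, was in none of the 35 and in 0.151% of all promoters. A match is a string of letters and not a measured binding site.

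F13B, the carrier subunit of the factor that cross-links fibrin, was a scarce transcript. It was at 0.887, 0.926 and 0.958 CPM in VEZF1-WT and at 0.755, 1.45 and 1.09 CPM in VEZF1-2A. VEZF1-2A libraries lay on both sides of the VEZF1-WT range, and the log2 fold change was -0.26 (SE 0.27). It was -0.0009 without VEZF1-2A library 2 and -0.46 without VEZF1-2A library 1.

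The pattern of the fibrinogen genes recurred in part of the list. Both libraries numbered 3 were the highest pair of the 6 libraries in 13 of 43 members (30.2%), beside 15.4% of all genes tested. These 13 were MBL2, C6, C8A, CFI, VTN, F2, F7, FGA, FGB, FGG, PROS1, A2M and SERPINF2. Among them, FGA, FGB and FGG are the genes from which the pattern was taken, so they are no recurrence of it. The libraries numbered 3 were the lowest pair in 5 members (11.6%), beside 15.3% of all genes, namely MASP1, C9, CD55, CD59 and KLKB1. For comparison, both libraries numbered 1 were the highest pair in 1 member (PLAU), beside 5.89% of all genes, and the lowest pair in 6 members (MASP2, C6, CD46, F11, F10 and F13B), beside 6.54%. Both libraries numbered 2 were the highest pair in 2 members (CD55 and KLKB1), beside 7.46%, and the lowest pair in 0, beside 8.39%. The pattern was chosen after the values were seen, and nothing in the labels says that a number marks a shared batch, culture or day.

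The size of this difference is given as the ratio of library 3 to the mean of libraries 1 and 2 of the same form. It was 1.74 in VEZF1-WT and 1.72 in VEZF1-2A for FGA, 1.83 and 1.86 for FGB, and 1.71 and 1.72 for FGG. C6, whose protein joins the membrane pore, had ratios of 2.10 and 1.93, at about 1 CPM or less in libraries 1 and 2. SERPINF2, the gene of alpha-2-antiplasmin, had 1.44 and 1.32, and C8A, a subunit of the pore, had 1.48 and 1.42. In the other direction, CD55 and CD59, which protect the cell's own surface from complement, had ratios of 0.822 and 0.799 in VEZF1-WT. In VEZF1-2A these ratios were 0.766 and 0.774. CD46, a further inhibitor on the cell surface, did not share this, with 1.08 in VEZF1-WT and 1.01 in VEZF1-2A. In the same order of forms, MASP1 had 0.62 and 0.76, KLKB1 had 0.64 and 0.65, and C9 had 0.71 and 0.66. In 24 of 43 members (55.8%) library 3 was above that mean in both forms, as in 33.5% of all genes, and in 9 members (20.9%) it was below in both, as in 32.3% of all genes.

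**Figure D3:**
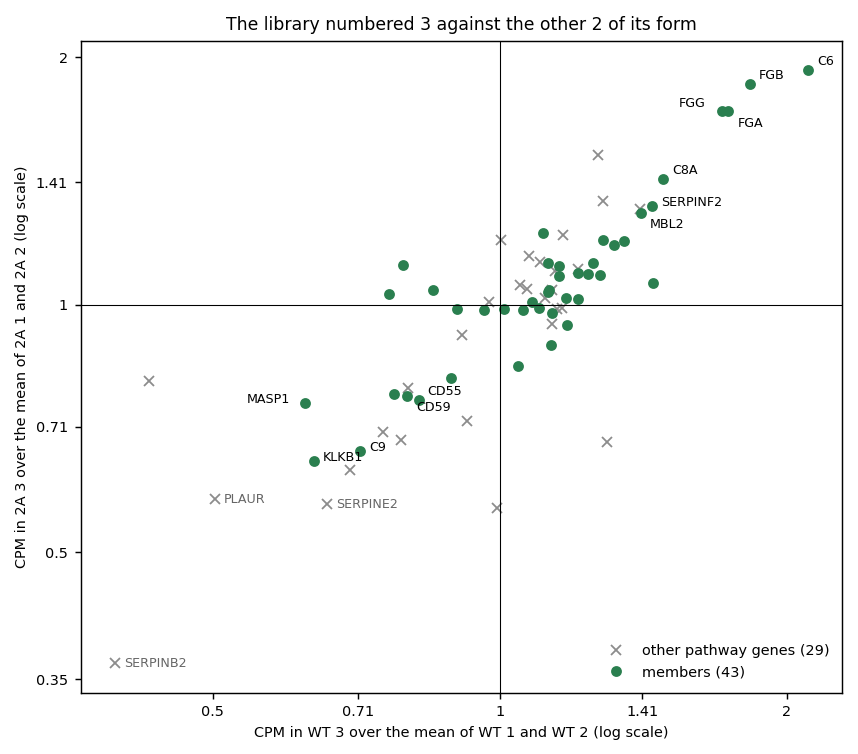
Ratio of library 3 to the mean of libraries 1 and 2 in VEZF1-WT (x axis) and in VEZF1-2A (y axis), log scales, for the 43 complement and coagulation genes tested (green circles) and 29 further genes of these pathways (grey crosses). The fibrinogen genes lie between 1.71 and 1.86 on both axes. MASP1, C9, CD55, CD59 and KLKB1 are among the members below 1 on both, and CD46 is above 1 on both.

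Other measures moved with these libraries. AFP, the gene of a fetal plasma protein that liver cancer cells make, was at 1928, 2043 and 3643 CPM in VEZF1-WT and at 1763, 2065 and 3482 CPM in VEZF1-2A. The receptor of urokinase, PLAUR, was lower there, with ratios of 0.502 and 0.580. Depth did not follow the same order, since library 3 held the most counts of the VEZF1-WT libraries (57199396) and was between the others in VEZF1-2A (33966492). The part of these measures in the fibrinogen values was not tested.

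**Figure D4:**
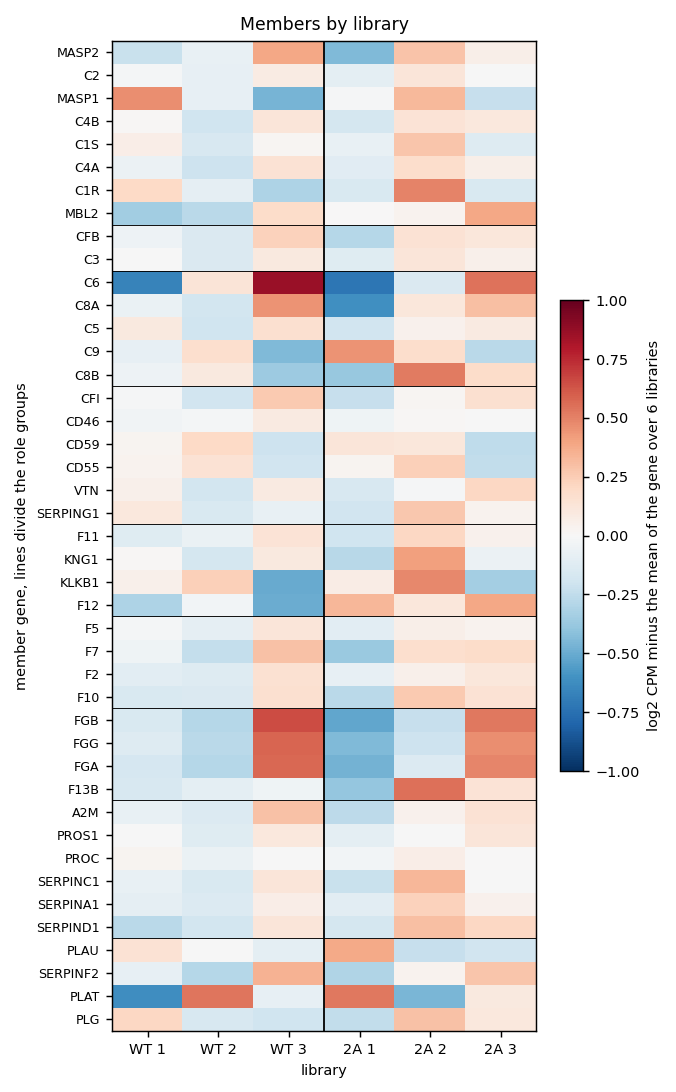
Level of each complement and coagulation gene tested in each library (columns), as log2 of CPM minus the gene's mean over the 6 libraries (colour), with genes in rows by role. The columns numbered 3 of both forms share high values in the fibrinogen genes and C6 and low values in MASP1, C9, CD55, CD59 and KLKB1.

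In the contact system, F12 was the 1 member whose groups did not overlap. Groups did not overlap in 0 members with higher values in VEZF1-WT, beside 3.5% of all genes, and in 1 member with lower values, beside 3.86% of all genes, so the members held no more of them than the table as a whole. F12, the factor that starts contact activation, was at 0.486, 0.590 and 0.426 CPM in VEZF1-WT and at 0.755, 0.650 and 0.784 CPM in VEZF1-2A. All VEZF1-WT libraries were below all VEZF1-2A libraries. The gene lies on the minus strand of chromosome 5 (chr5:177402141-177409564, GRCh38). The log2 fold change was -0.55 (SE 0.29), the largest among the members, with an unadjusted edgeR p of 0.0888 and an exact permutation p of 0.1, the smallest that 3 libraries against 3 can give. F12 had a mean of only 23.7 counts per library, and 399 bases of its exons (14.5%) overlapped those of GRK6 on the opposite strand, which had a mean of 629.7 counts. The strand used in counting is not given in the sources used here.

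The other contact genes varied without order by form. F11, which activates factor IX, ranged from 29.5 to 38.9 CPM over the 6 libraries, and KNG1, the gene of kininogen, the source of bradykinin, from 2.09 to 3.37 CPM. KLKB1, the gene of plasma kallikrein, ranged from 0.621 to 1.22 CPM. Their log2 fold changes were -0.04, -0.08 and -0.18, and overlap with genes on the opposite strand covered 13.8% of the exon bases of F11 and 14.1% of those of KNG1.

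Among the extrinsic and common factors, F2, the gene of prothrombin, ranged from 116 to 142 CPM and F5, whose protein is the cofactor that factor Xa needs to cut prothrombin, from 135 to 158 CPM. F7, which starts clotting together with tissue factor, ranged from 34.1 to 54.2 CPM. F10, the gene of the factor that cuts prothrombin, was at 20.7, 20.9 and 25.7 CPM in VEZF1-WT and at 19.2, 27.6 and 25.5 CPM in VEZF1-2A. In F10, VEZF1-2A held both the lowest and the highest library. Its log2 fold change was -0.10 (SE 0.13), from -0.24 without VEZF1-2A library 1 to 0.0066 without VEZF1-2A library 2. Those of F2, F5 and F7 were -0.05, 0.01 and 0.01.

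Anticoagulants and broad protease inhibitors held the member with the second smallest p. SERPIND1 (chr22:20774113-20787720), the gene of heparin cofactor II, an inhibitor of thrombin, was at 41.3, 43.9 and 54.2 CPM in VEZF1-WT and at 44.1, 61.5 and 57.4 CPM in VEZF1-2A. The groups overlapped through VEZF1-WT library 3 and VEZF1-2A library 1. The log2 fold change was -0.23 (SE 0.13), with an unadjusted edgeR p of 0.107. With single libraries left out it ran from -0.36 (without VEZF1-WT library 3) to -0.13 (without VEZF1-2A library 2), and it was -0.35 without VEZF1-2A library 1 and -0.15 without VEZF1-WT library 1.

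SERPINA1 was at 2604, 2530 and 2907 CPM in VEZF1-WT and at 2586, 3254 and 2856 CPM in VEZF1-2A. One library, VEZF1-2A library 2, stood above the rest, and the log2 fold change was -0.11 (SE 0.09). It was -0.022 without that library and -0.19 without VEZF1-2A library 1. A2M was at 987, 944 and 1273 CPM in VEZF1-WT and at 866, 1074 and 1148 CPM in VEZF1-2A, with a log2 fold change of 0.05 (SE 0.12). Both libraries numbered 3 were its highest. The sign of A2M turned without VEZF1-WT library 3 (-0.09) and without VEZF1-2A library 1 (-0.06).

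SERPINC1, the gene of antithrombin, ranged from 11.6 to 17.1 CPM. PROC, the gene of protein C, which inactivates clotting cofactors, varied least of this group, from 83.1 to 91.3 CPM, and PROS1, the gene of its cofactor protein S, ranged from 48.3 to 57.2 CPM. Log2 fold changes of the 3 genes were -0.08, -0.03 and -0.02.

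The fibrinolysis genes showed no difference between forms that exceeded the spread. PLG, the gene of plasminogen, ranged from 1.51 to 2.20 CPM, and SERPINF2, whose protein blocks plasmin, from 36.9 to 57.7 CPM. Of the plasminogen activators, PLAU, the gene of urokinase, ranged from 9.39 to 14.3 CPM and PLAT, the gene of the tissue type, from 0.401 to 0.898 CPM. Their log2 fold changes lay between -0.12 (PLG) and 0.01 (PLAU). For PLAU, 31.0% of the exon bases overlapped C10orf55 on the opposite strand.

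Complement can start by the lectin, the classical or the alternative route. MBL2 (chr10:52765380-52772784), the gene of mannose-binding lectin, which recognises sugars on microbes, had the third smallest p of the members. It was at 5.87, 6.20 and 8.48 CPM in VEZF1-WT and at 7.48, 7.64 and 9.77 CPM in VEZF1-2A. VEZF1-WT library 3 lay inside the VEZF1-2A range, while the other VEZF1-WT libraries lay below it. The log2 fold change was -0.27 (SE 0.16), with an unadjusted edgeR p of 0.1247, and it ran from -0.46 without VEZF1-WT library 3 to -0.14 without VEZF1-2A library 3, with -0.17 without VEZF1-WT library 1.

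Of the proteases that act with the recognition molecules, C1R was at 4.37, 3.59 and 3.09 CPM in VEZF1-WT and at 3.43, 5.40 and 3.44 CPM in VEZF1-2A. A single library, VEZF1-2A library 2, was above the others, and the log2 fold change of -0.16 (SE 0.21) became 0.10 without it. C1R shared 11.6% of its exon bases with C1RL on the same strand, which had a mean of 871 counts beside 156.5 for C1R. C1S, the partner of C1R, ranged from 20.4 to 27.7 CPM. MASP1 and MASP2, the proteases of the lectin route, ranged from 2.41 to 4.58 CPM and from 2.16 to 3.83 CPM. Only 1.69% of the exon bases of MASP2 overlapped AL109811.3 on the opposite strand, but that gene had a mean of 7120 counts beside 123.5. C2, which supplies the protease of the C3 convertase, ranged from 31.2 to 36.3 CPM, with a log2 fold change of -0.01, and 33.0% of its exon bases overlapped AL645922.1 on the same strand.

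C4A (chr6:31982057-32002681) and C4B (chr6:32014795-32035418) are near-identical copies whose proteins form part of the same convertase. C4A was at 76.2, 68.9 and 87.7 CPM in VEZF1-WT and at 73.2, 89.8 and 82.9 CPM in VEZF1-2A. C4B was at 147, 127 and 158 CPM in VEZF1-WT and at 129, 160 and 157 CPM in VEZF1-2A. The groups overlapped in both genes, which had their lowest value in VEZF1-WT library 2 and their highest in VEZF1-2A library 2. Log2 fold changes were -0.08 (SE 0.10) for C4A and -0.04 (SE 0.10) for C4B, and both rested on single libraries. That of C4A was -0.0009 without VEZF1-WT library 2, -0.0078 without VEZF1-2A library 2 and -0.18 without VEZF1-WT library 3, and that of C4B was 0.04 without VEZF1-WT library 2 and 0.01 without VEZF1-2A library 2.

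How reads that fit both copies were assigned is not given in the sources used here, so the share of each copy is uncertain. Aligned over 5427 bases, a C4A transcript (C4A-243) and a C4B transcript (C4B-202) of GENCODE release 29 differed at 13 bases, an identity of 99.76%. The 60 bases that hold 5 of these differences are shown because only reads across such positions tell the copies apart. They start at base 3421 of the C4A transcript and at base 3388 of the C4B transcript, and capitals mark the bases that differ.
C4A: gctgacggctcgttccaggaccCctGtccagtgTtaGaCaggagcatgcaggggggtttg
C4B: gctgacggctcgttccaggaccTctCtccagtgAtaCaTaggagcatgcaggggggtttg

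C3, on which all routes of complement converge, was among the most abundant members, from 853 to 1029 CPM. Its log2 fold change was -0.04, with a 95% interval from -0.21 to 0.14. CFB, the protease of the alternative route, ranged from 52.0 to 74.4 CPM with a log2 fold change of 0.02, and 47.5% of its exon bases overlapped AL645922.1 on the same strand.

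The terminal components build the membrane pore, and C6, the scarcest of those tested, varied most between libraries. C6 was at 0.676, 1.18 and 1.95 CPM in VEZF1-WT and at 0.652, 0.974 and 1.57 CPM in VEZF1-2A. Library 3 was the highest of each form, the highest library was 2.99 times the lowest, and the log2 fold change of 0.26 (SE 0.41) became -0.23 without VEZF1-WT library 3 and 0.63 without VEZF1-2A library 3. C8B was at 2.15, 2.39 and 1.74 CPM in VEZF1-WT and at 1.72, 3.20 and 2.53 CPM in VEZF1-2A, with a log2 fold change of -0.27 (SE 0.23), which was -0.038 without VEZF1-2A library 2 and -0.47 without VEZF1-2A library 1. C9, which forms most of the ring, was at 3.13, 3.73 and 2.45 CPM in VEZF1-WT and at 4.53, 3.75 and 2.75 CPM in VEZF1-2A. In C9 both libraries numbered 3 were the lowest, and the log2 fold change was -0.25 (SE 0.21), from -0.083 without VEZF1-2A library 1 to -0.42 without VEZF1-2A library 3. C5, the component that is cut to start the pore, ranged from 61.0 to 78.4 CPM and C8A from 5.01 to 10.4 CPM.

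Among the complement inhibitors, groups overlapped in all 6 members. SERPING1, the gene of C1 inhibitor, was at 8.62, 7.19 and 7.61 CPM in VEZF1-WT and at 7.0, 9.64 and 8.21 CPM in VEZF1-2A. VEZF1-2A held its lowest and its highest library, and the log2 fold change of -0.09 (SE 0.13) became 0.04 without VEZF1-2A library 2. CFI, the gene of the protease that cuts active C3 and C4, ranged from 225 to 316 CPM, with 32.0% of its exon bases overlapping AC126283.2 on the same strand. Of the inhibitors on the cell surface, CD46 ranged from 82.1 to 89.7 CPM, CD55 from 17.5 to 24.6 CPM and CD59 from 51.4 to 70.2 CPM. VTN, the gene of vitronectin, which binds the forming pore, ranged from 26.0 to 34.2 CPM. Overlap with AC002094.3 on the same strand covered 17.3% of the exon bases of VTN. Log2 fold changes of CFI, CD46, CD55, CD59 and VTN lay between -0.03 and 0.04.

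Of 52 further genes of these pathways, 29 passed the filter and 7 were at 0 in all 6 libraries, among them C1QA and F13A1. The same edgeR test gave none of the 29 an unadjusted p under 0.05 or an adjusted one, and their log2 fold changes were above 0 in 16 and below 0 in 13, with a median of 0.01. TFPI2, a Kunitz-type protease inhibitor gene, ranged from 2.62 to 5.18 CPM with a log2 fold change of 0.26. CFD, the gene of the protease that activates factor B, ranged from 0.241 to 0.515 CPM, and C7, the partner of C6 in the pore, from 2.33 to 3.26 CPM. Their log2 fold changes were 0.44 and 0.16.

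Spread between libraries was somewhat wider in the members than in the table as a whole. The highest library was a median of 1.47 times the lowest over the members tested and 1.32 times over all genes, and it was more than 1.5 times the lowest in 19 of the 43 members, beside 34.6% of all genes. The median biological coefficient of variation in edgeR was 11.6% for the members and 10.4% for all genes. Of the 45 members, 20 shared exon bases with another gene of the table and 25 shared none.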

How the data were processed

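The authors deposited 1 table of read counts per gene, whole numbers without normalization, for 6 libraries of HepG2 cells. The build was GRCh38 per the submitters' processing notes. The aligner, the counting program, the annotation and the strand setting are not given in the sources used here. Libraries were made with an mRNA library kit from RNA extracted on columns. Groups and numbers came from the labels. Of 59613 lines, 5 were left out, on which the entry of ANK2 was broken. Even numbers made up 65.7% to 67.5% of the counts from 11 to 100, and 81.0% to 83.0% of those from 1 to 10, so that low values often change by 2 at a time. All pairs of libraries of a form differed by more than sampling noise (chi-square statistic over its degrees of freedom, 6.86 to 27).

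The analysis used edgeR 4.0.16 under R 4.3.3, with filterByExpr (minimum count 10, minimum total 15), TMM scaling, and glmQLFit and glmQLFTest with the form of VEZF1 as the 1 term, two-sided, prior count 0.125, and p-values adjusted by Benjamini-Hochberg across 19111 genes. That test gives no SE, so the SE was computed as the absolute log2 fold change over the square root of its F statistic. The 95% intervals are the log2 fold change plus or minus this SE times a quantile of the t distribution. The exact permutation test used log2 of CPM plus 0.1. Alternatives were other scalings and filters, DESeq2 1.42.0, limma 3.58.1 voom, the library number as a block, mitochondrial genes left out, counts halved and each library left out. Leaving out both libraries numbered 3 was added after the data were seen. The test was run on simulated data first.

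The members, the gene lists and the tests were chosen with earlier results of these data known. Values in every library are given for the 12 members with the smallest p, the 3 with the highest level per length, the fibrinogen genes and the C4 copies, and further pathway genes are named by smallest p, of which 1 is not reported here. F12 was looked at for exon overlap like all members. Promoters came from RefSeq and C4 transcripts from GENCODE. Plots were made in Python 3.11.15 (matplotlib 3.10.9).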

Additional observations from a re-analysis of the deposited data

How the results depend on the processing

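No member had an adjusted p under 0.05 in any alternative run. In the edgeR fit, counts of members at an unadjusted p under 0.05 were 0 higher and 0 lower in VEZF1-WT. They became 2 higher (FGB and FGG, beside 1.13% of all genes) and 1 lower (SERPIND1, beside 1.18%) with no filter on low counts, where all 45 members were tested. With the library number as a replicate block they became 2 higher (FGB, edgeR p 0.0255, and FGG, 0.0456; 1.79% of all genes) and 2 lower (SERPIND1, 0.0057, and MBL2, 0.0145; 2.52% of all genes). With both libraries numbered 3 left out, an alternative chosen after seeing the data, 3 were lower (SERPIND1, MBL2 and SERPINA1), beside 2.49% of all genes, and 5 of 44 had groups that did not overlap with lower values in VEZF1-WT, beside 17.2%. The filter of CPM above 1 in 3 libraries left 39 members and 0 with such groups, since it dropped F12. The cause of the other changes was not tested. The other scalings, DESeq2, limma voom, counts halved and mitochondrial genes left out kept these counts.

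Leaving out each library in turn gave from 0 to 1 higher and from 0 to 3 lower members, from 0 to 1 and from 1 to 4 members whose groups did not overlap with higher and lower values, beside 6.35% to 10.8% and 7.09% to 10.6% of all genes, and a median log2 fold change of the members from -0.11 to 0.03. Over these the log2 fold change ran from -0.24 to 0.38 for FGA, from -0.21 to 0.50 for FGB, from -0.18 to 0.43 for FGG, from -0.093 to 0.14 for A2M and from -0.23 to 0.63 for C6, with the lowest value without VEZF1-WT library 3 and the highest without VEZF1-2A library 3. Without VEZF1-2A library 1, FGA (-0.12), FGB (-0.06), FGG (-0.05) and A2M (-0.06) were below 0 as well. The values ran from -0.31 to 0.099 for C1R, from -0.24 to 0.0066 for F10 and from -0.19 to 0.038 for SERPING1, each above 0 without VEZF1-2A library 2. For C4B they ran from -0.13 to 0.038, above 0 without VEZF1-WT library 2 and without VEZF1-2A library 2 (0.0127). With both libraries numbered 3 left out, A2M was at -0.0096, and FGA, FGB and FGG were at 0.06, 0.15 and 0.12.

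The labels do not say whether same-numbered libraries belong together, so they were not treated as pairs. Deviations of same-numbered libraries from their group means correlated with r = 0.08, 0.15 and 0.38 over all genes for numbers 1, 2 and 3, and r = 0.25, -0.02 and 0.89 over the members, and VEZF1-WT library 2 correlated best with VEZF1-2A library 1 (r = 0.18). With the block, 825 genes had an unadjusted p under 0.05 and 6 an adjusted p under 0.05, against 408 and 0. Without the filter, 16 of 38745 genes had an adjusted p under 0.05. Depth limits F9 and C8G, which were not tested, and F12, C6, KLKB1, PLAT and F13B, whose counts were low.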
